A study of Mus musculus with 8 samples.

Results

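The 8 genes described here, Hmgcs1, Idi1, Fdps, Sqle, Lss, Dhcr7, Srebf2 and Insig1, make cholesterol in mouse cells or sense it. They were taken by gene name, with earlier results of these data known, from a table of 22553 genes. The table gives ribosome footprints and input RNA of sorted olfactory cells with and without Mex3a, an RNA-binding protein. A ribosome footprint is a stretch of mRNA protected by a ribosome, so footprint counts report how many ribosomes sat on a coding sequence, and input RNA counts report how much of the mRNA there was.

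Cells were sorted from the main olfactory epithelium by 2 GFP alleles. The Ngn1-GFP transgene marks immediate neuronal progenitors and immature olfactory sensory neurons, and the OMP-ires-GFP knock-in marks mature olfactory sensory neurons; the sorted populations are called Ngn and OMP cells from here on. Controls were Mex3a fl/fl or Mex3a fl/+ mice without Cre, so that floxed alleles were shared by all 4 groups, and KO mice were Mex3a fl/fl with Foxg1iresCre, which adds an allele that the controls lack. The genotype tag of the OMP KO names OMP-ires-Cre where its description names OMP-ires-GFP, and the group was taken by its description. The labels give no age, and the growth conditions name no treatment. Each group has 2 footprint libraries in the labels and 1 column per assay in the table, so values are the authors' values for a group, differences have no replicate check, and no p-value is given. Brackets hold 95% counting intervals, which cover counting error only, since PCR copies of a molecule are not independent. Sorted cells are bulk samples, in which fewer cells of a type and less RNA per cell cannot be told apart.

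Footprint columns held between 3031489 and 4456989 reads over coding sequences, and RNA columns between 26946592 and 89327877, the highest being the Ngn control. Mex3a itself had 437 footprints in the Ngn control and 28 in its KO, and 16 and 5 in the OMP pair. Its RNA was 4.75-fold lower in the Ngn KO and 8.51-fold lower in the OMP KO than in the controls. Summed footprints of 6 mature neuron markers were between 10279 and 12111 CPM (counts scaled to depth) in the Ngn columns and between 18759 and 22672 in the OMP columns, and Omp was abundant in all 4. The 5 precursor markers summed to 479 and 534 CPM in the Ngn columns and to 36.4 and 56.5 in the OMP columns, where the basal cell markers Trp63 and Krt14 were at 0. Markers of supporting cells differed between columns: the 6 sustentacular markers summed to 3901 and 337 CPM in the Ngn control and KO, and to 124 and 371 in the OMP control and KO. The 5 gland markers summed to 334 and 758 CPM in the Ngn pair and to 68.7 and 498 in the OMP pair.

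Cells build cholesterol from acetyl-CoA through mevalonate, isoprenoids and squalene. The transcription factor SREBP-2, encoded by Srebf2, is held in the endoplasmic reticulum by SCAP and INSIG proteins when sterols are plentiful, and it is released and cleaved to switch on the pathway genes when sterols are scarce. Insig1 is itself a target of SREBP-2, so the sensor is part of a feedback loop. Neurons use the pathway for membranes as well as for isoprenoids such as dolichol and ubiquinone.

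SREBP-2 acts at promoters, often beside the factors NF-Y and Sp1, and the promoters of a sensor, of the factor itself and of enzymes of the mevalonate arm are shown to let the reader see these letters. The sequences are RefSeq's on GRCm38.p6 and run 5′ to 3′ over the 250 bases before each start, all on the plus strand. Capitals mark 4 motifs searched on both strands: TCACCCCA, a core of the sterol regulatory element, ATTGG of the CCAAT box, GGGCGG of the GC box, and the E-box CACGTG. They do not overlap each other in these windows. The windows are chr13:119690101-119690350 for Hmgcs1, chr15:82147019-82147268 for Srebf2, chr5:28071162-28071411 for Insig1 and chr13:8885356-8885605 for Idi1.
Hmgcs1: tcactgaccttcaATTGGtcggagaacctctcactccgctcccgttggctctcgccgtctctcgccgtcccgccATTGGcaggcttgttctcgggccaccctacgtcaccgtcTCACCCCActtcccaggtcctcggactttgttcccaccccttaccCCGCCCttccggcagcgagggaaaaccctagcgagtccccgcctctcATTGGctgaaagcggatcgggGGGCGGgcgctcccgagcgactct
Srebf2: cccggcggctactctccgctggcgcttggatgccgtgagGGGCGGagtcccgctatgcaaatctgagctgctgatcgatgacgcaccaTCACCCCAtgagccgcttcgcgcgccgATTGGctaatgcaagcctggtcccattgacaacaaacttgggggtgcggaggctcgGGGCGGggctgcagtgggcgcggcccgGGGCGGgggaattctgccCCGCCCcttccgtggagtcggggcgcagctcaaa
Insig1: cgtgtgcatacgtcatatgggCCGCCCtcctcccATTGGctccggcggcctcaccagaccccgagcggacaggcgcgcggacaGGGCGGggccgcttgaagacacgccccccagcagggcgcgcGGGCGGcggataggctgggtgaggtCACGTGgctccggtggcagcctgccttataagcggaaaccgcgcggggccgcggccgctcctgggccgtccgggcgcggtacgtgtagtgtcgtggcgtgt
Idi1: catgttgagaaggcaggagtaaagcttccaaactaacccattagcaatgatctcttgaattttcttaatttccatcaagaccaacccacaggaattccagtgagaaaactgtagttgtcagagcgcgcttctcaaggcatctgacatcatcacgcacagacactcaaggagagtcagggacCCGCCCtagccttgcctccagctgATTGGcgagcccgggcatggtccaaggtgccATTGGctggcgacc
Of the 8 genes, 6 had an entry, with 8 windows in all, since Dhcr7 has 3 starts. TCACCCCA was found in 2 of the 8 windows, with its first base 137 bases before the start of Hmgcs1 and 162 bases before that of Srebf2, and 1.34% of 32851 promoter windows of the same length hold it. ATTGG was found in 6 of the 8 against 33.8% of windows, GGGCGG in 7 of the 8 against 32.7%, and CACGTG in 2 of the 8 against 6.02%. The windows of Dhcr7 with ATTGG and with CACGTG are those of alternative starts, not the one at the gene position given below. A match describes the letters and is not a binding site.

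By footprints per length of coding sequence, Hmgcs1 led the 8 genes in all 4 columns. Hmgcs1, on chr13:119690351-119708260, encodes the cytosolic HMG-CoA synthase of the early mevalonate steps. Its footprint level was 228, 254, 173 and 145 RPKM, the authors' unit of reads scaled to coding length and depth, in the order Ngn control, Ngn KO, OMP control and OMP KO, which is used throughout. Its percentile among the 22553 genes lay between 95.7 and 97.7.

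Sqle and Srebf2 came next in each column. Sqle, on chr15:59315092-59331193, encodes squalene epoxidase, the first oxygen-requiring step of sterol synthesis, and had 91.4, 84.4, 65.9 and 112 RPKM. Srebf2, on chr15:82147269-82205379, had 79.9, 81.5, 74.0 and 57.8 RPKM. Sqle lay above Srebf2 in 3 columns and below it in the OMP control, and the gap between this pair was widest in the OMP KO.

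The other enzymes were lower and close to each other. Fdps, on chr3:89093588-89101967, encodes farnesyl diphosphate synthase, where the sterol and isoprenoid branches part, and had 21.2, 25.2, 18.6 and 17.1 RPKM. Lss, on chr10:76531565-76557139, encodes lanosterol synthase, which closes the sterol rings, and had 20.7, 23.7, 19.2 and 10.6 RPKM. Dhcr7, on chr7:143823167-143848410, encodes the reductase of the last step and had 22.8, 27.3, 17.1 and 20.02 RPKM. The counting intervals of these 3 genes overlap in the controls, so their order there is not resolved, while Lss was the lowest of the 3 in the OMP KO.

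Insig1 and Idi1 were the lowest of the 8 in the OMP KO. Insig1, on chr5:28071412-28078662, had 27.6, 21.6, 9.68 and 0.313 RPKM, from 96, 51, 27 and 1 footprints. Idi1, on chr13:8885606-8892396, encodes the isomerase that balances the isoprenoid building blocks, and had 4.62, 4.65, 4.24 and 0.793 RPKM, from 19, 13, 14 and 3 footprints. Idi1 was thus the least occupied of the 8 in 3 columns, and in the OMP KO the order of Idi1 and Insig1, at 3 and 1 footprints, is not resolved by counting.

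**Figure D1:**
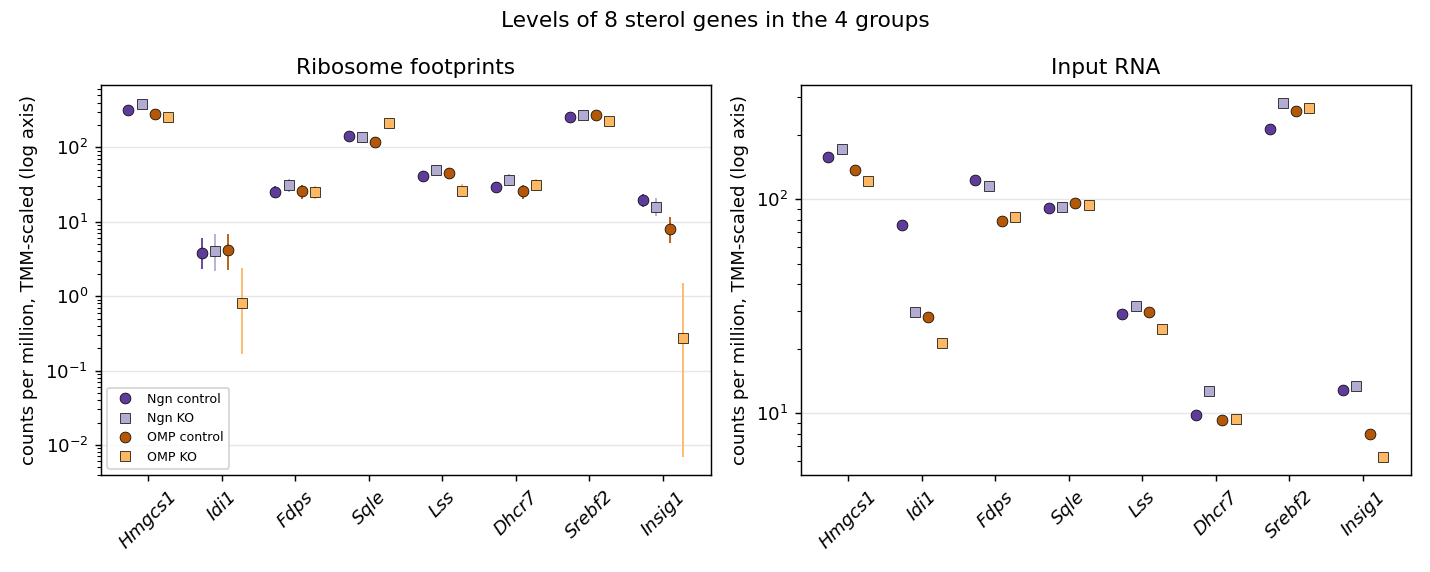
Footprints (left) and input RNA (right) of the 8 genes in CPM after TMM scaling, on log axes. Circles are controls and squares are KO, purple is Ngn and orange is OMP, each point is 1 column, and lines are 95% counting intervals of the footprint counts. Levels differ between genes also by coding length; within a gene, the widest spread of footprints is that of Insig1, from 96 counts to 1, and the RNA of Idi1 is highest in the Ngn control.

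RNA gave another order. Per length, Hmgcs1 again led with 129, 166, 124 and 107 TPM, the authors' unit of transcripts. Fdps followed in the Ngn columns with 121 and 134 TPM and had 85.1 and 86.3 in the OMP columns, where Srebf2 lay above it with 104 in both. Idi1 had 105, 48.9, 43.0 and 31.3 TPM, so that in the Ngn control it was the third most abundant mRNA of the 8 while its footprints were the lowest. Dhcr7 was the scarcest mRNA of the 8 in all 4 columns, with 8.83, 13.5, 9.19 and 9.03 TPM.

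The ratio of a gene's share of footprints to its share of RNA, a measure of ribosomes per mRNA, spread widely within this 1 pathway. Between the highest and the lowest of the 8 genes it spanned 59.1-fold in the Ngn control, 21.3-fold in its KO, 18.8-fold in the OMP control and 87.7-fold in its KO. The widest spans rest on Idi1, whose footprints are few.

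Dhcr7 ranked first in all 4 columns, with ratios of 3.30, 2.92, 2.67 and 3.14, and stood between percentiles 90.4 and 93.9 of the genes with at least 20 RNA counts. Hmgcs1 had 2.25, 2.21, 2.01 and 1.93. The all-gene medians were 1.01, 0.897, 0.852 and 0.765, so both enzymes carried more footprints per RNA read than a typical gene in every column.

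Fdps and Idi1 were at the other end. Fdps had 0.223, 0.272, 0.314 and 0.281, between percentiles 15.2 and 21.5. Idi1 had 0.0558, 0.137, 0.142 and 0.0358, between percentiles 8.28 and 10.7, and ranked last of the 8 in every column, in the OMP KO with counting too thin to place it below Insig1. In the Ngn control 6820 RNA reads of Idi1 stood against 19 footprints, and 881 RNA reads of Dhcr7 against 145.

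The 4 remaining genes lay between Hmgcs1 and Fdps in the Ngn columns and the OMP control, and Sqle and Insig1 lay outside that range in the OMP KO. Sqle had 1.71, 1.499, 1.21 and 2.12, highest in the OMP KO, and Lss had 1.58, 1.59, 1.48 and 0.987, lowest there. Srebf2 had 1.29, 0.960, 1.03 and 0.783. Insig1 had 1.66, 1.19, 0.970 and 0.0406, the last from its single footprint.

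**Figure D2:**
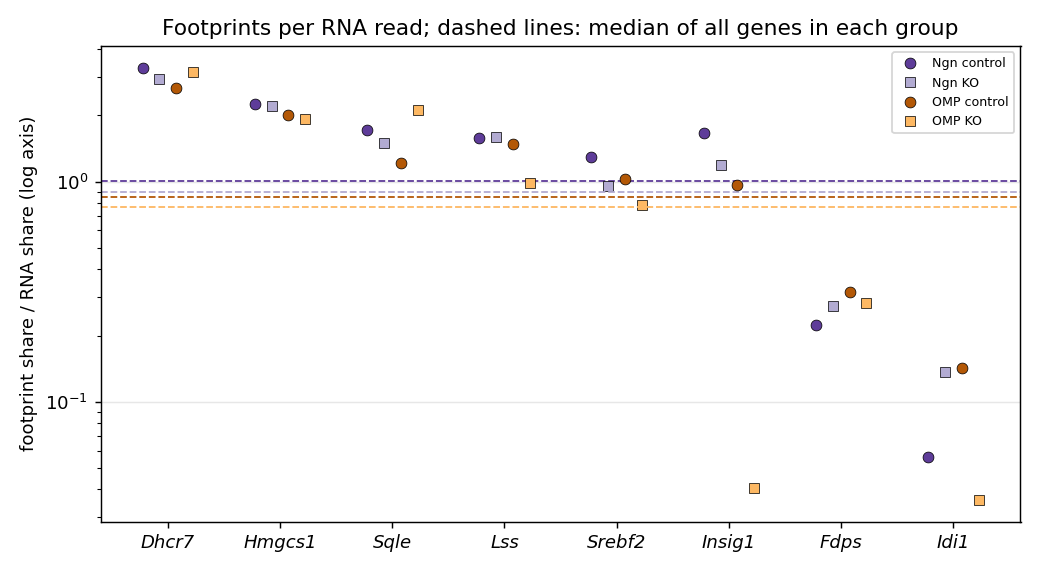
Share of footprints over share of RNA for each gene, on a log axis, in each of the 4 columns (circles controls, squares KO), with dashed lines at the median of all genes with at least 20 RNA counts in that column. Dhcr7 and Hmgcs1 lie above the medians and Fdps and Idi1 below them in every column, and Insig1 lies far below the medians in the OMP KO, where it has 1 footprint.

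Comparisons were made for each assay: KO over control in either population, and OMP over Ngn in either genotype. The comparisons share columns, so their values are not independent of each other. Ratios are log2 of TMM-scaled counts, a pair needs at least 20 counts to be measured, and a gene is counted as called where it is at least 2-fold apart with an interval that excludes no difference. In footprints, 0 of 8 genes were called in the Ngn KO, where 6.49% of 12554 measured genes were called higher and 10.8% lower. In the OMP KO 1 of the 7 measured genes was called, Insig1, against 7.12% of 11160 genes higher and 8.54% lower. Insig1 was also the 1 gene of 8 called in OMP over Ngn controls (6.11% of 12387 genes higher, 17.4% lower) and the 1 of 7 called between the KO columns (11.3% of 11766 genes higher, 18.4% lower). Each was lower. With scaling by library size alone, the share of higher genes among those called went from 26.0% to 15.04% between the controls and from 38.0% to 25.9% between the KO columns. The median footprint ratio of the measured members was 0.16 and -0.17 in the KO comparisons and -0.08 and -0.33 between populations, beside all-gene medians between -0.02 and 0.00.

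In RNA, Idi1 was called lower in the Ngn KO, 1 of 8 genes, where 4.49% of 16231 genes were called higher and 11.3% lower. No member was called in RNA of the OMP KO, where 4.4% of 14351 genes were higher and 3.89% lower. Idi1 was called lower between the control populations (3.49% of 16150 genes higher, 23.3% lower) and Insig1 between the KO populations (4.77% of 15058 genes higher, 16.4% lower). In footprints per RNA read, Idi1 was called higher in the Ngn KO, against 8.05% of 12530 genes higher and 9.82% lower, and between the control populations, against 5.98% of 12374 genes higher and 8.7% lower. Insig1 was called lower in the OMP KO, against 7.16% of 11124 genes higher and 8.93% lower, and between the KO populations, against 9.51% of 11717 genes higher and 12.4% lower. With library size alone, the share of higher genes among those called in footprints per RNA read between the control populations went from 40.7% to 27.7%. At 0 or 1 gene called of 7 or 8, the share of members called was near the background in every comparison.

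Among the sterol sensing genes, Insig1 gave the lowest footprint ratio of the 8 in the OMP KO. Its footprints numbered 27 in the OMP control and 1 in the KO, a log2 ratio of -4.87 [-10.23, -2.27], or 29.3-fold lower. Its RNA counts were 248 and 162, a log2 ratio of -0.36 [-0.65, -0.06], and the ratio of footprints per RNA read was -4.52 [-6.91, -2.13]. As a description of how widely such small counts spread, the 5th and 95th percentiles over 1977 genes with a pair total between 0.5 and 2 times that of Insig1 were -2.96 and 2.51. In the Ngn pair the counts were 96 and 51, a log2 ratio of -0.29 [-0.81, 0.21], with RNA at 0.06 [-0.11, 0.23]. Where 50 counts are required in a pair, the OMP KO ratio of Insig1 and the footprints per RNA read of Idi1 described below are no longer measured.

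Insig1 was lower in OMP than in Ngn cells in both assays. Between controls the footprint ratio was -1.30 [-1.97, -0.67] and the RNA ratio -0.70 [-0.90, -0.50]. Between the KO columns, with 51 footprints against 1, the footprint ratio was -5.88 [-11.21, -3.34] and the RNA ratio -1.11 [-1.39, -0.85]. Over genes of like count, the 5th percentiles between controls were -3.37 in footprints and -3.16 in RNA. Between the KO columns they were -3.98 and -2.60, and only the footprint ratio there lay below its percentile. Marker sums of sustentacular and gland cells were also lower in the OMP control than in the Ngn control, and higher in the OMP KO than in its control, where Insig1 was lower; their part in the result was not tested. In the OMP KO 5 of the 6 sustentacular markers and 4 of the 5 gland markers were called higher than in the control, which holds beside the values of Sqle and Lss in that comparison as well.

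Srebf2 stayed within 1.5-fold in every comparison and both assays. Its footprints numbered 1243, 863, 924 and 828, and its RNA reads 19290, 8236, 8027 and 6945. The footprint ratio was 0.10 [-0.03, 0.22] in the Ngn KO and -0.28 [-0.42, -0.14] in the OMP KO. RNA was higher by 0.40 [0.36, 0.44] in the Ngn KO and by 0.05 [0.00, 0.10] in the OMP KO, and footprints per RNA read gave -0.31 [-0.44, -0.17] and -0.33 [-0.47, -0.19], below the control in both.

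In the mevalonate arm, Hmgcs1 showed small ratios of opposite sign in the 2 knockouts. Its footprints numbered 1588, 1205, 965 and 932 and its RNA reads 14121, 5003, 4283 and 3177. KO over control was 0.22 [0.11, 0.33] in footprints and 0.13 [0.09, 0.18] in RNA of Ngn cells, and -0.17 [-0.30, -0.04] and -0.17 [-0.24, -0.11] in OMP cells. Footprints and RNA therefore moved alike, and footprints per RNA read differed by 0.09 [-0.03, 0.21] and 0.00 [-0.14, 0.15]. Between the KO populations Hmgcs1 was lower in OMP cells, by -0.58 [-0.71, -0.46] in footprints and -0.49 [-0.56, -0.43] in RNA.

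Idi1 differed in RNA where its footprints could not resolve a difference. Its RNA reads numbered 6820, 869, 878 and 551, or 75.7, 29.8, 28.2 and 21.2 CPM, so the Ngn control stood 2.54-fold above the highest of the other columns. KO over control in Ngn cells was -1.34 [-1.45, -1.24] in RNA and 0.07 [-1.06, 1.17] in footprints, and 1.42 [0.41, 2.42] in footprints per RNA read. OMP over Ngn between controls was -1.43 [-1.53, -1.32] in RNA, 0.09 [-1.02, 1.16] in footprints and 1.52 [0.53, 2.50] in footprints per RNA read. For footprints per RNA read, the 5th and 95th percentiles over genes of like footprint count were -2.91 and 2.60 in the Ngn KO. They were -2.37 and 2.23 between controls, and Idi1 lay within the spread in both. For RNA, the 5th percentiles over genes of like count were -0.90 in the Ngn KO and -1.58 between controls. The RNA ratio of Idi1 lay below its percentile in the Ngn KO but not between controls. Sustentacular markers had their highest RNA sum in the Ngn control too, at 907, 126, 67.8 and 280 CPM, and 6 of 6 were called lower in footprints of the Ngn KO and 6 of 6 in OMP over Ngn controls; their part in the result was not tested. Both comparisons share the Ngn control RNA column, in which 9.07% of 16284 genes stood at least 2-fold above each other column. Of the 67 genes in the lists below, Acat2, Acaca and Elovl6 did. In the OMP KO the 14 and 3 footprints of Idi1 were below the 20 needed, at -2.34 [-4.78, -0.50], with RNA at -0.41 [-0.57, -0.26].

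Fdps showed no footprint difference that its interval separated from 0. Its footprints numbered 124, 100, 87 and 92 and its RNA reads 11140, 3374, 2470 and 2155. The footprint ratio was 0.31 [-0.08, 0.70] in the Ngn KO and -0.04 [-0.48, 0.40] in the OMP KO. As folds of the control, these intervals run from 0.944 to 1.63 and from 0.718 to 1.32. Its RNA was 1.56-fold lower in OMP than in Ngn controls and 1.40-fold lower between the KO columns. Footprints per RNA read were higher by 0.41 [0.02, 0.79] in the Ngn KO and by 0.66 [0.26, 1.06] in OMP over Ngn controls. Both lay below the 95th percentiles over genes of like count, 1.01 and 0.88. The intervals in the OMP KO, -0.10 [-0.53, 0.33], and between the KO columns, 0.15 [-0.26, 0.57], included 0.

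In the sterol arm, Sqle and Lss went in opposite directions in the OMP KO. The footprints of Sqle numbered 405 in the OMP control and 788 in the KO, a ratio of 0.84 [0.67, 1.02], or 1.79-fold higher. Its RNA reads were 2977 and 2446, a ratio of -0.02 [-0.10, 0.05], and footprints per RNA read were higher by 0.86 [0.68, 1.05]. Over 2197 genes of like count, the 5th and 95th percentiles of the footprint ratio were -0.56 and 0.65. In the Ngn pair, 700 and 440 footprints gave -0.05 [-0.22, 0.13], and RNA gave 0.02 [-0.04, 0.09]. The RNA of Sqle lay between 90.9 and 95.5 CPM in all 4 columns, the narrowest RNA range of the 8 as a fold, while its footprints ranged from 119 to 213 CPM.

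The footprints of Lss numbered 153 in the OMP control and 97 in the KO, a ratio of -0.78 [-1.16, -0.40], or 1.71-fold lower. Over 4000 genes of like count, the 5th and 95th percentiles of the footprint ratio were -0.97 and 0.95. Lss lay within this spread, unlike Sqle. RNA reads of 922 and 646 gave -0.25 [-0.40, -0.11], and footprints per RNA read -0.52 [-0.92, -0.13]. In Ngn cells 206 and 160 footprints gave 0.26 [-0.05, 0.56] and RNA 0.13 [0.02, 0.24]. Between the KO populations Lss was 1.91-fold lower in OMP cells, the member nearest to the 2-fold limit from below.

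Dhcr7 had 145, 118, 87 and 117 footprints and 881, 371, 290 and 245 RNA reads. Its footprint ratio was 0.33 [-0.04, 0.69] in the Ngn KO and 0.31 [-0.11, 0.72] in the OMP KO. RNA was higher by 0.38 [0.20, 0.56] in the former and differed by 0.02 [-0.24, 0.27] in the latter. Between the KO populations its RNA was lower in OMP cells, at -0.44 [-0.68, -0.20].

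**Figure D3:**
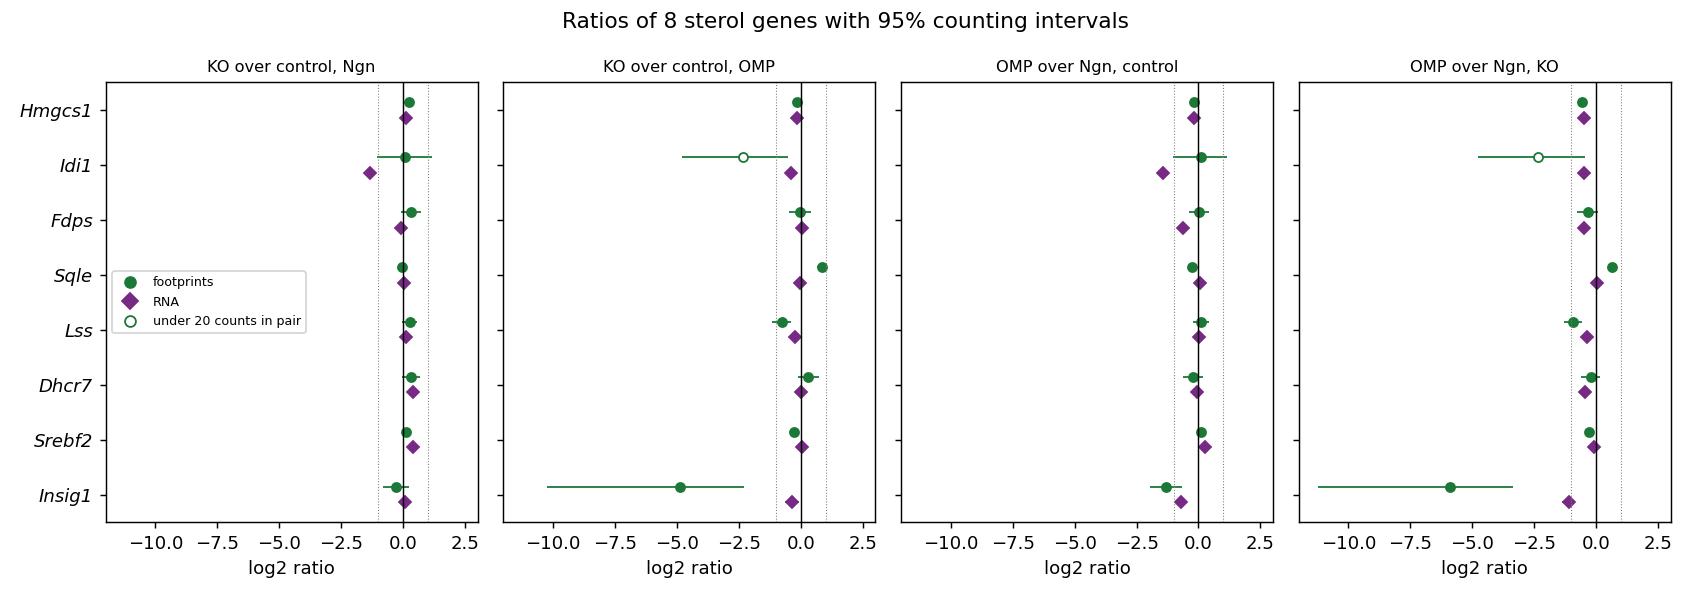
log2 ratios of footprints (green circles) and RNA (purple diamonds) for the 8 genes in the 4 comparisons, with 95% counting intervals; dotted lines mark 2-fold, and open circles mark pairs under 20 counts. Most points lie within 2-fold; Insig1 footprints lie far to the left in the comparisons that use the OMP KO, with wide intervals from 1 footprint, and Idi1 RNA lies left of the 2-fold line in the comparisons that use the Ngn control.

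The difference between the 2 KO effects on footprints, OMP minus Ngn, was taken per gene with an approximate counting interval. It was 0.89 [0.64, 1.13] for Sqle, -1.04 [-1.51, -0.56] for Lss and -4.58 [-7.01, -2.16] for Insig1. For Hmgcs1 it was -0.39 [-0.56, -0.23] and for Srebf2 -0.37 [-0.56, -0.19]. The intervals of Fdps, -0.35 [-0.92, 0.22], and Dhcr7, -0.02 [-0.55, 0.51], included 0. Idi1, with few footprints, gave -2.42 [-4.38, -0.46]. Without replicates these differences compare columns and were not tested over animals.

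Together with 14 other enzymes from acetyl-CoA to cholesterol, the 6 enzymes among the members form a set of 20. In footprints of the Ngn KO 1 of 20 was called, Mvd, mevalonate decarboxylase, with 66 footprints in the control and 20 in the KO, beside 6.49% of all genes called higher and 10.8% lower, and 18 of 20 lay within 0.5 on the log2 scale. The RNA ratio of Mvd was 0.62 [0.38, 0.85], opposite in sign. In the OMP KO 0 of 18 measured enzymes were called, beside 7.12% of all genes higher and 8.54% lower, and 14 of 18 lay within 0.5. The median over the measured enzymes was 0.10 and 0.01, beside 0.00 for all genes.

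Besides Sqle, 2 of these enzymes had intervals above 0 in the OMP KO without reaching 2-fold. Ebp, a sterol isomerase, had 209 and 328 footprints, a ratio of 0.53 [0.28, 0.79], with RNA at -0.06 [-0.21, 0.09]. Msmo1, a sterol methyl oxidase, had 285 and 386, a ratio of 0.32 [0.09, 0.54]. The intervals of Hmgcs1, Lss and Pmvk, phosphomevalonate kinase, lay below 0, so the enzymes did not go one way.

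**Figure D4:**
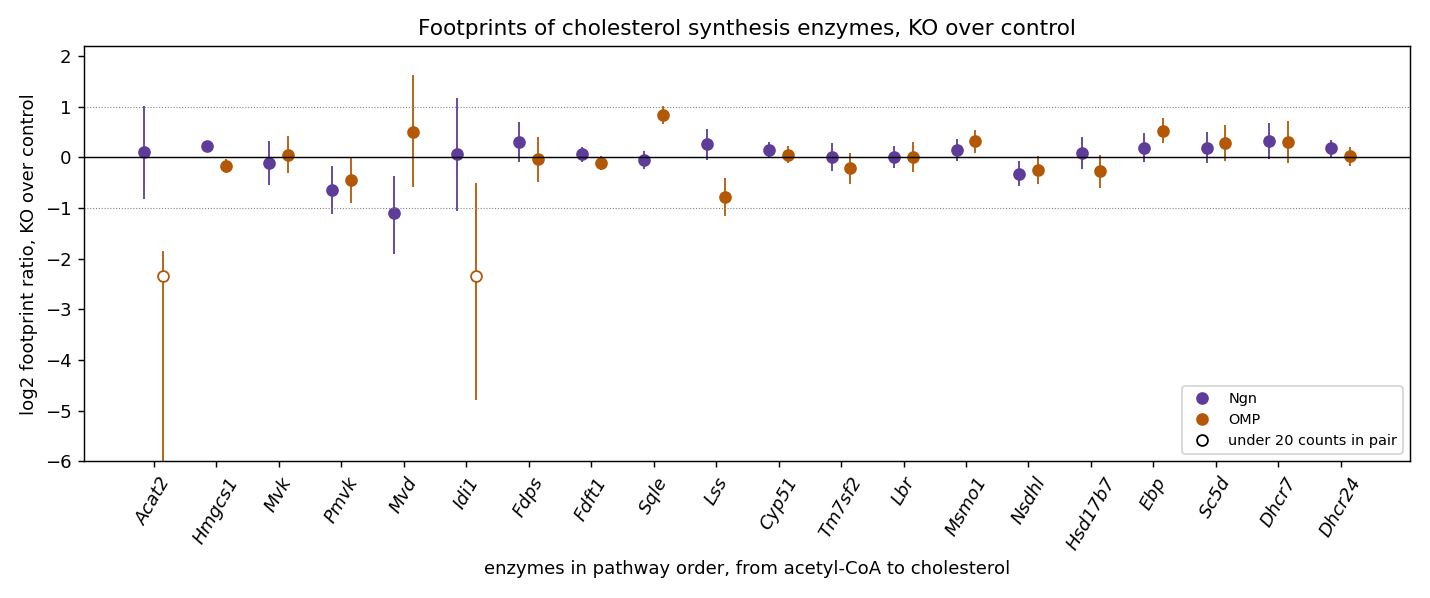
log2 footprint ratio of KO over control for 20 enzymes in pathway order, in Ngn (purple) and OMP (orange) cells, with 95% counting intervals; dotted lines mark 2-fold and open circles mark pairs under 20 counts. The interval of Acat2 in OMP cells, from 14 footprints and 0, has no lower end, and its 0 was set to 3 counts. Sqle and Ebp lie highest among the measured orange points with Mvd, whose interval is wide, and Lss lies lowest among them.

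Of 16 other genes of sterol sensing and uptake, 15 were measured in footprints of the Ngn KO, with 1 called higher and 2 lower, near the all-gene shares of 6.49% and 10.8%. Insig2, the second INSIG protein, had 6 and 33 footprints there, a ratio of 3.08 [1.81, 4.63], with RNA at -0.37 [-0.70, -0.05]. The ubiquitin ligase genes Rnf139 and Mylip were lower, with 215 and 62 and with 29 and 7 footprints. In the OMP KO 0 of 13 were called, beside 7.12% of all genes higher and 8.54% lower, and Insig2 had 7 and 4 footprints, below the 20 needed. In footprints, Scap, the escort of SREBP-2, was within 1.2-fold in both knockouts.

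Of 12 genes of the isoprenoid branch that leaves the pathway at Fdps, 4 were called lower and 1 higher in footprints of the Ngn KO, and 3 lower and 0 higher in the OMP KO. The all-gene shares called lower in these comparisons, given above, were 10.8% and 8.54%, and the list medians were -0.44 and -0.15. Pdss2, a subunit of the synthase of the ubiquinone tail, had 46 and 6 footprints in the Ngn pair and 27 and 5 in the OMP pair, ratios of -2.32 [-3.83, -1.09] and -2.55 [-4.29, -1.16]. Coq2, which attaches that tail, had 133 and 32, then 117 and 44, ratios of -1.43 [-2.04, -0.87] and -1.53 [-2.07, -1.02]. Nus1, a subunit of the enzyme that makes the dolichol precursor, had 68 and 12, then 30 and 8, ratios of -1.88 [-2.90, -0.98] and -2.03 [-3.36, -0.87]. These 3 genes were called lower in both knockouts, and their RNA ratios lay between -0.37 and 0.25. They were named for their interval bounds in these comparisons, and a spread over genes of like count was not computed for them. Around the pair total of Insig1 in the OMP KO, the 5th percentile was -2.96, lower than the ratios of Pdss2 and Nus1 there. That range of counts holds Pdss2 and Nus1 but not Coq2, which has more footprints. The gene called higher in the Ngn KO was Pggt1b, a subunit of a prenyl transferase.

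Of 13 genes of sterol export, storage and turnover, 0 were called in footprints of either knockout, with 10 and 8 measured. All-gene shares were 6.49% higher and 10.8% lower in the Ngn KO, and 7.12% and 8.54% in the OMP KO. In footprints, Apoe, the carrier of cholesterol between cells, was lower in OMP than in Ngn cells, by -1.06 [-1.22, -0.91] between controls and -1.31 [-1.45, -1.18] between KO columns. Between the KO columns Nceh1, a cholesteryl ester hydrolase, was higher in OMP cells, and Apoe was joined by Abca1, a sterol exporter, among the lower genes. Of 10 genes measured between controls, 0 were called higher and 1 lower, beside 6.11% and 17.4% of all genes. Of 8 measured between the KO columns, 1 was called higher and 2 lower, beside 11.3% and 18.4% of all genes. In RNA between controls, 0 of 12 measured genes were called lower, with a lowest ratio of -0.38, beside 23.3% of all genes. In RNA between the KO columns, 2 of 11 were called lower, Apoe and Abca1, beside 16.4% of all genes.

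Genes of fatty acid synthesis, a pathway run mainly by SREBP-1, were in several cases lower in OMP cells. Of 11 genes, 3 of 9 measured were called lower in footprints of OMP than of Ngn controls, and 5 of 10 between the KO columns, beside all-gene shares called lower of 17.4% and 18.4%, with 0 higher in either and list medians of -0.78 and -0.97. The fatty acid synthase gene Fasn had 286 and 44 footprints in the controls and 275 and 42 in the KO columns, Ngn first, and Fads2, a fatty acid desaturase, had 321 and 41, then 175 and 63. Scd2, another desaturase, was lower by -1.11 [-1.39, -0.83] and -1.07 [-1.36, -0.78]. Scd1 and Elovl6 had 23 and 44 footprints in the Ngn KO and 0 in the OMP KO, or 8.87-fold and 17.0-fold lower with 0 set to 3 counts per column. These folds depend on that setting and are not lower bounds. Among the 20 sterol enzymes, 1 of 20 and 0 of 18 were called in the same comparisons, the 1 being Mvd, with medians of 0.01 and -0.16; the difference between the lists was not tested. Sums of precursor and basal cell markers were lower in the OMP column of either pair as well, and the sustentacular sum was lower in the control pair but not between the KO columns, at 337 and 371 CPM; their part in the difference was not tested. In footprints of the knockouts, 1 of 10 measured genes was called higher in Ngn cells, Elovl6, and 0 of 8 in OMP cells. Neither knockout had a gene of the list called lower in footprints. All-gene shares were 6.49% higher and 10.8% lower in the Ngn KO, and 7.12% and 8.54% in the OMP KO. In RNA of the Ngn KO, 0 of 11 genes were called higher and 3 lower, beside 4.49% and 11.3% of all genes. These were Acaca, Me1 and Elovl6, so Elovl6 was called in opposite directions in footprints and RNA.

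Profiles over the 8 columns, each assay centred on its mean, were compared between each member and 8432 other genes with at least 20 counts in every column. The nearest gene was Papola for Sqle, at a Euclidean distance of 0.0843 log2 units, Dpysl2 for Srebf2 (0.142), Pak2 for Dhcr7 (0.166), Calu for Hmgcs1 (0.167), Pdcl3 for Fdps (0.169) and Apeh for Lss (0.178). Idi1 and Insig1, which themselves do not reach 20 counts in every column, were farther from any gene, with Pcna at 0.598 and Tmem2 at 1.44. No member was the nearest to another: between 68 and 2020 of the other genes lay nearer to each member than the closest of the 8 did. The closest members to each other were Hmgcs1 and Fdps, at 0.408.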

How the data were processed

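The deposited table holds, per the file headers, footprint counts and input RNA counts over coding sequences, coding lengths, footprint RPKM, RNA TPM and a translational efficiency ratio for 4 groups, in 24 value columns made by the authors. Footprint RPKM recomputed from the deposited counts and lengths differed by rounding error alone. FastQC, cutadapt, STAR and the mm10 build appear in the submitters' processing notes with no versions, and the labels name a stranded low-input RNA kit. How 2 libraries became 1 column, and whether counting used strand, are not given in the sources used here. RefSeq places a lncRNA over part of Insig1 and of Lss, a snRNA over Fdps and Mir33 within Srebf2.

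Counts were scaled by TMM (edgeR 4.0.16, R 4.3.3) over genes kept by filterByExpr (at least 10 counts, total of at least 15), namely 13479 for footprints and 16388 for RNA. Python 3.11.15 served for ratios (scipy 1.17.1, numpy 2.4.6, pandas 2.3.3) and for plots (matplotlib 3.10.9). Intervals are exact conditional binomial ones, and approximate for footprints per RNA read and for differences of effects. Where a column had 0 counts, 3 were used. The planned tests needed replicates and were replaced by this description. The steps were tested on simulated data.

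Named genes are Mex3a, the 8 members, up to 3 genes per list by the interval bound nearest 0, and the gene nearest to each member in profile, over log2 of CPM plus 0.5; others called were named after their values were seen. Predicted genes and pseudogenes were left out of the profiles. Members and lists were chosen with earlier results of these data known. The 75 symbols of members and lists were all found in the RefSeq table. Alternatives were TMM leaving out receptor, ribosomal and mitochondrial genes, size factors of DESeq2 1.42.0, plain library size, a minimum of 1 count in place of the filter, a 1.5-fold limit and, chosen after seeing the data, at least 50 counts in the pair. Some genes of the lists are not reported here by name.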

Additional observations from a re-analysis of the deposited data

Results flagged for a closer look

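Of the 8 genes, Hmgcs1 and Lss had KO effects of opposite sign in the 2 populations with both counting intervals apart from no difference. Hmgcs1 footprints were at -0.1702 in the OMP KO against 0.224 in the Ngn KO (log2, KO over control), and Hmgcs1 RNA at -0.1716 against 0.132. Lss RNA was at -0.2539 against 0.126. With 1 column per group the differences were not tested over replicates, and all 6 ratios are below 1.5-fold.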

How the results depend on the processing

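No paired analysis was possible because the table has 1 column per group and the columns carry no replicate numbers; for the same reason no replicate could be left out. Of 546 alternative values of single genes, 530 moved by less than their counting interval, 0 called values reversed, and the other 16 moved with library size alone. That scaling shifts the median footprint ratio of OMP over Ngn by -0.21 in controls and -0.23 in KO, the RNA ratio between KO columns by -0.12, and footprints per RNA read by -0.12 in the Ngn KO and by -0.17 and -0.11 between populations, and it turns the sign of uncalled ratios near 0. These were footprints between controls of Srebf2 (0.10 to -0.11), Lss (0.10 to -0.11), Idi1 (0.09 to -0.12) and Fdps (0.02 to -0.19), the RNA of Sqle between the KO populations (0.02 to -0.09), footprints per RNA read of Lss between controls (0.08 to -0.09) and of Hmgcs1 in the Ngn KO (0.09 to -0.03), in the OMP KO (0.00 to -0.06) and between controls (0.00 to -0.17), the RNA of Lss between controls (0.03 to -0.02) and that of Dhcr7 in the OMP KO (0.02 to -0.00). The Hmgcs1 values at 0.00 also turned by less than 0.02 with other scalings or filters.

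Counts of members called kept within 1.5 times their value in 57 of 72 cases. With library size alone, 2 members were called in footprints between the KO populations, Lss joining Insig1. With no filter beyond 1 count, Idi1 joined Insig1, which gives 2 in footprints and 2 in footprints per RNA read, both in the OMP KO and between the KO populations. At 1.5-fold, footprints gave 3 in the OMP KO and 3 between the KO populations (Sqle, Lss and Insig1), RNA gave 3 between controls (Insig1, Idi1 and Fdps), and footprints per RNA read gave 2 in the OMP KO, 2 between controls and 2 between the KO populations. With at least 50 counts in the pair, chosen after seeing the data, 0 were called in footprints and 0 in footprints per RNA read of the OMP KO, where Insig1 is no longer measured, and 0 in footprints per RNA read of the Ngn KO and 0 between controls, where Idi1 is not. Over all genes, a 1.5-fold limit raised the calls in footprints from 2176 to 3740, 1748 to 3316, 2917 to 4816 and 3487 to 5452, in the order of the comparisons, in RNA from 1190 to 2116 in the OMP KO, 4333 to 6561 between controls and 3191 to 5285 between the KO populations, and in footprints per RNA read from 2239 to 3806, 1789 to 3537, 1817 to 3408 and 2564 to 4359. The minimum of 50 counts lowered them in footprints to 1313, 1045, 1934 and 2264, in RNA of the OMP KO to 708, and in footprints per RNA read of the Ngn KO to 1410 and of the OMP KO to 1107.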
